A study of Bactrocera dorsalis with 4 samples.

Results

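Genomic clusters of known miRNAs were examined in the oriental fruit fly, Bactrocera dorsalis, as they stand in the lists of known miRNAs of 4 small RNA libraries. A known miRNA is a small RNA read that matched miRBase or an earlier miRNA of this fly. The clusters were found by position. Entries on contigs of the fly genome whose precursors overlapped on a strand were merged into loci, and loci on the same contig and strand with starts within 10000 bases were joined. This gave 164 loci on 114 contigs from 234 distinct entries, where an entry is 1 sequence at 1 position. Of the 164 loci, 29 fell into 9 clusters and 135 stood alone. A further 78 entries carried chromosome arm names of Drosophila melanogaster and were not used.

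The libraries were made from adults aged 12 days that had been kept apart by sex since emergence. The females library held the bodies of females without ovaries, the males library the bodies of males without testes, and the ovaries and testes libraries the dissected gonads. Strain and number of insects per library are not given in the sources used here, and no mutation, transgene or drug treatment is named for any library. With 1 library per group there was no replicate, so no test between groups was made. The lists give names, sequences and positions but no amounts, so "listed" means that the list of a library holds the entry, and a missing entry was not read as a level of 0. By the read counts of the study the ovaries library had the fewest clean reads.

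Many animal miRNA genes lie close together and are cut from 1 long primary transcript, in which each hairpin gives a precursor and each precursor a duplex of 5p and 3p arms. The arm that is loaded into Argonaute finds its targets mainly through its seed, bases 2 to 8 from the 5′ end, so miRNAs with the same seed are usually counted as 1 family. In Drosophila, several such groups are well known, among them the let-7 complex of late development, the miR-309 group of the early embryo and the miR-2 and miR-13 groups, whose family represses cell death genes.

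The precursors of 3 clusters are shown because they carry the orders and the arm forms to which the values below refer. Each is given in the direction of transcription and comes from the supplementary miRNA list of the study. Capitals mark the mature sequences listed at exactly its position. Forms listed at another, overlapping position of the same locus are not marked. Among these are the 24 nt miR-79 and the 22 nt miR-100. The latter begins 4 bases before the marked 18 nt form and has the seed ACCCGTA. The first cluster in this set lay on the plus strand at JFBF01000010.1:2862103-2862738 and held miR-100, let-7 and miR-125 in this order.
miR-100: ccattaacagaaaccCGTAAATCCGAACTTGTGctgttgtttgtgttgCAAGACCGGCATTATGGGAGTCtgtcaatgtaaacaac
let-7: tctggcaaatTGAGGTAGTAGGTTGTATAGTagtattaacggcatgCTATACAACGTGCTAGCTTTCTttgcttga
miR-125: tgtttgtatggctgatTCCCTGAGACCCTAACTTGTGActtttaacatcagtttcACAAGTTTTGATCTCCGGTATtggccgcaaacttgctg
The next lay on the minus strand at JFBF01000027.1:1320107-1324214 and held miR-9c, miR-306, miR-79 and miR-9b.
miR-9c: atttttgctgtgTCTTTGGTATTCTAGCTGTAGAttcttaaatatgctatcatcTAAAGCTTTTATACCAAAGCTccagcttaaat
miR-306: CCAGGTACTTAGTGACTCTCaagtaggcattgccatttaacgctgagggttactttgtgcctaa
miR-79: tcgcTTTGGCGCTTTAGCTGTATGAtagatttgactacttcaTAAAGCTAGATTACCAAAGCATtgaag
miR-9b: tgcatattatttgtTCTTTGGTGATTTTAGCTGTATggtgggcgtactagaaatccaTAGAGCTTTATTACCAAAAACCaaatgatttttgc
The last lay on the minus strand at JFBF01003687.1:2581-2815 and held miR-275 and miR-305.
miR-275: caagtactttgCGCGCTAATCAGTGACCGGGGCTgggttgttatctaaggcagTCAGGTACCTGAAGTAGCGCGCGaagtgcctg
miR-305: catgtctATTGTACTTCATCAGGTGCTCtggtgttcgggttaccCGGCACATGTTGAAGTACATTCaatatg
In 8 of these 9 precursors both arms are in capitals, and miR-306 shows its 5p arm only. The source gave a precursor for 23 of the 29 clustered loci. Among the 39 entries at these positions, 37 mature sequences were found in the precursor without a mismatch. The other 2 each had 1 mismatch, miR-100 of 22 nt (G9A, the listed base first, then the precursor base, counted from 1 at the 5′ end of the mature sequence) and miR-4-3p (A11G). At single loci 89 of 107 entries were found without a mismatch, 17 with 1 and 1 with more.

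The 9 clusters ranged from 2 to 6 loci. The most compact was miR-275 and miR-305, with a span of 235 bases, in which the starts of the precursors lay 150 bases apart. In mosquitoes miR-275 is needed for egg development, and miR-305 acts in the Drosophila gut. The pair of miR-994 and miR-318, of which miR-318 is known from the Drosophila ovary, spanned 324 bases at JFBF01000147.1:463595-463918 on the minus strand. The let-7 complex spanned 636 bases, with 205 bases from the start of miR-100 to that of let-7 and 338 bases on to miR-125. In insects let-7 and miR-125, the relative of lin-4 of worms, are expressed together at the end of larval life. These 3 clusters therefore held 7 loci within less than 1 kb each.

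Of the longer clusters, 3 copies of miR-2 lay at JFBF01000002.1:2204082-2205196 on the minus strand, over 1115 bases, with starts 496 and 498 bases apart. The locus farthest upstream carried the names miR-2a and miR-2b for its arms. On the plus strand, miR-11 and miR-998, which in Drosophila share an intron of the cell cycle gene E2f1, spanned 2502 bases at JFBF01000005.1:2323676-2326177. The group of miR-283, miR-3477 and miR-12 spanned 2604 bases at JFBF01000073.1:1264457-1267060, where miR-3477 lay 436 bases from miR-12 and 2069 bases from miR-283. The miR-9c group spanned 4108 bases, in which miR-306 and miR-79 lay 645 bases apart. A cluster of 6 loci, the richest of the 9, lay on the minus strand at JFBF01000054.1:203037-206575 over 3539 bases. Its order was miR-6, miR-309, miR-4, miR-6, miR-4 and miR-6, and it repeated a pair of miR-4 followed by miR-6.

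The widest cluster spanned 8348 bases at JFBF01000020.1:1019339-1027686 on the plus strand, where a locus named for miR-2a and miR-2c was followed by miR-13a, miR-13b and an entry named mir-14-p5. The last of these rests on 1 entry that the lists mark as New, a status for a form without its own match in miRBase, and its seed CATTCTT was also listed at 3 single loci, under names of miR-1-5p, mir-14-p3 and mir-14-p5. Although named p5, its sequence (tCATTCTTtttctctctccc) was close to that of miR-14-3p (tCAGTCTTtttctctctcct). The latter has a single locus on JFBF01000236.1 that was listed in all 4 libraries. Whether mir-14-p5 is an arm of a separate miRNA gene was not tested. The distance from mir-14-p5 to miR-13b, 5699 bases, was also the largest that was joined. The start to start distances within clusters ranged from 150 to 5699 bases with a median of 497.

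**Figure D1:**
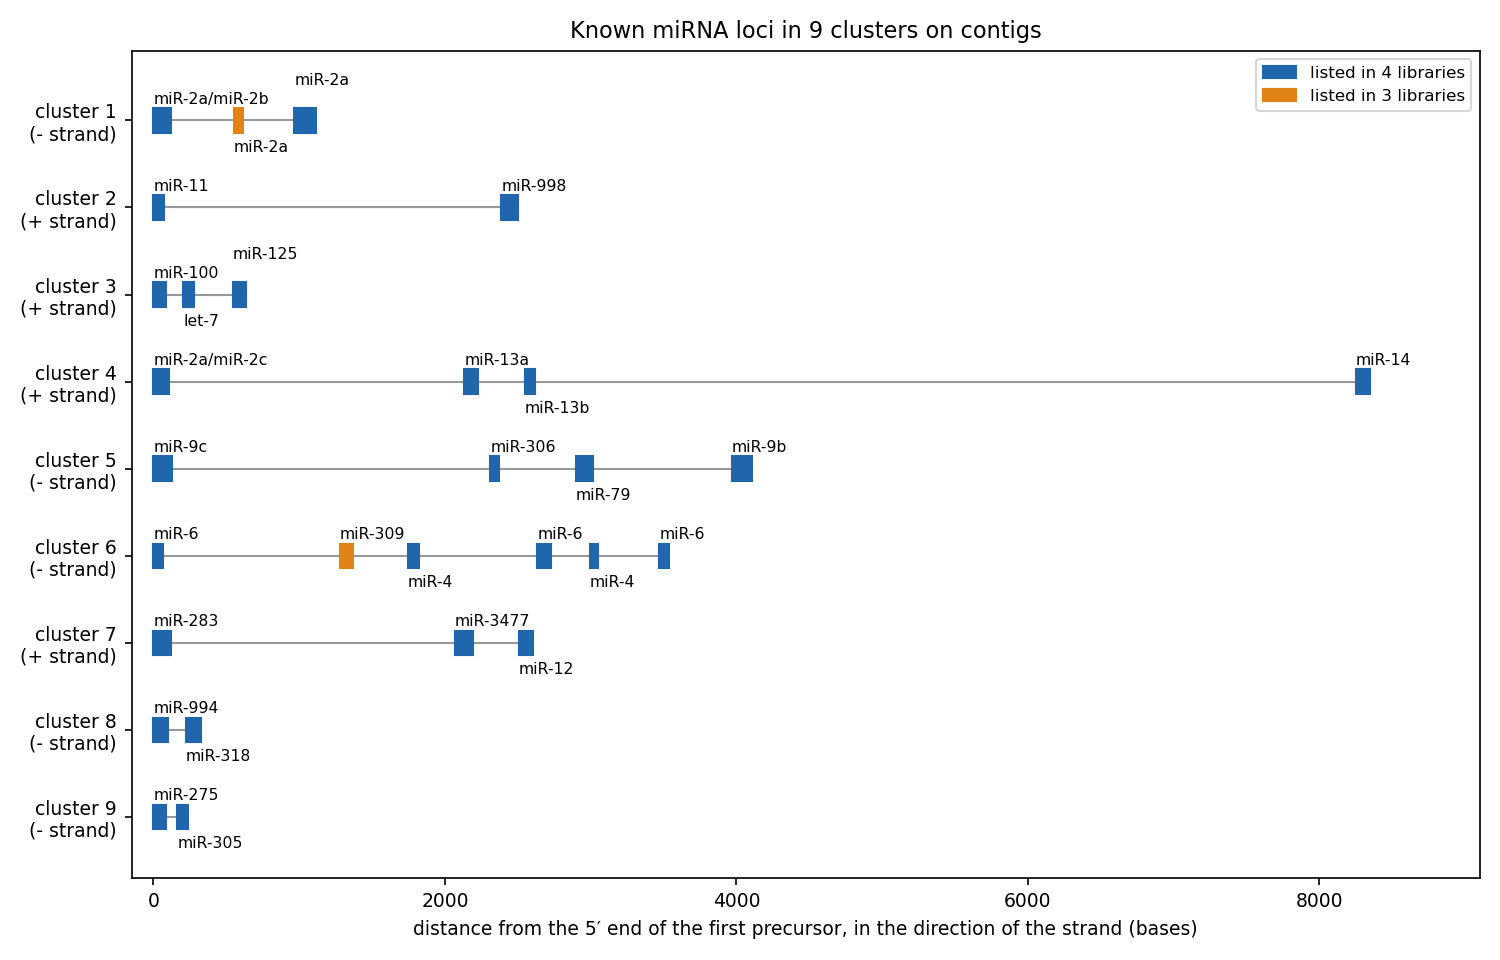
Map of the 9 clusters. The x axis is the distance in bases from the 5′ end of the first precursor along the strand, boxes are loci drawn to scale and coloured by the number of libraries that list them, and the clusters run from 235 bases (cluster 9) to 8348 bases (cluster 4, whose last box is mir-14-p5).

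The joining distance had little to decide. Of 38 neighbouring pairs on the same contig and strand, 20 lay within 5699 bases and the next pair, miR-317 and miR-34 on JFBF01000004.1, lay 52758 bases apart. In Drosophila, miR-317, miR-277 and miR-34 form a cluster, and here miR-277 stood on another contig. The pair after that, miR-2491 and miR-9891, was 71769 bases apart. With a distance of 1000 bases, 8 clusters of 21 loci were found, and with 50000 bases the 9 clusters of 29 loci. Loci on opposite strands were joined in 1 case, miR-iab-4 and miR-iab-8 of the Hox region, whose precursors overlapped by 70 bases.

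**Figure D2:**
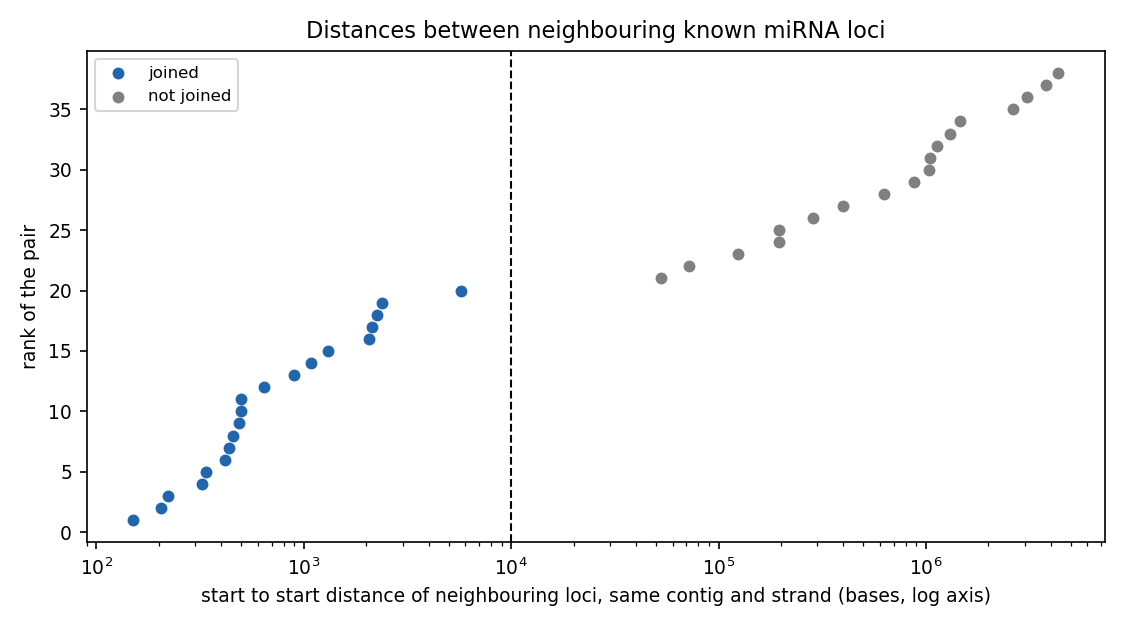
Distances between neighbouring loci. The x axis is the start to start distance in bases on a log axis, the y axis the rank of the pair, and the dashed line stands at 10000 bases. The 20 joined pairs end at 5699 bases and the first pair beyond the line is at 52758 bases.

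Clustered loci were nearly all listed in every library. Of 29 clustered loci, 27 were listed in all 4 libraries (93.1%, exact Clopper-Pearson 95% interval 77.2% to 99.2%), against 53 of 135 single loci (39.3%, 31.0% to 48.0%) and 48.8% of all 164 loci. No clustered locus was listed in 1 library alone, whereas 41 single loci were (30.4%), and the share over all loci was 25.0%. The intervals cover counting error over loci only, and neighbouring loci are not independent, so no p is given. By library, 28 clustered loci were listed in each body library, female and male, and 29 in each gonad library. The single loci numbered 97 for the female body, 94 for the male body, 80 for the ovaries and 81 for the testes. Over all loci, single loci were thus fewer in the gonads than in the bodies, and the clustered loci were not. The gap was smaller in the stricter set described below.

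The single loci also differed from the clustered loci in what their entries were. At 50 of 135 single loci every entry was marked New, against 1 of 29 clustered loci and 31.1% of all 164 loci. A mature sequence of 20 nt or more was missing at 57 single loci and at no clustered locus (34.8% of all loci). At 33 single loci the listed position covered fewer than 50 bases, shorter than a miRNA hairpin, and no clustered locus was so short (20.1% of all loci). Clustered loci spanned 58 to 148 bases with a median of 93.

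With such loci left out, the gap between clustered and single loci was much smaller. In this stricter set, which was chosen after the data had been seen, 26 of 28 clustered loci (92.9%, 76.5% to 99.1%) and 46 of 57 single loci (80.7%, 68.1% to 90.0%) were listed in all 4 libraries, and the intervals overlapped. The 11 single loci of the stricter set that were not listed everywhere were miR-929, miR-137, miR-263b, miR-375, miR-956, miR-315, miR-219, miR-33, miR-87, miR-311 and miR-279, named here for their pattern. Of miR-375 this is the locus at JFBF01000071.1:1495379-1495456, listed in females, and another miR-375 locus of the same set was listed in all 4 libraries. Left out on their own, New entries brought the share of single loci listed in all 4 libraries to 61.2%, and loci without a mature sequence of 20 nt brought it to 60.3%. The share of clustered loci was 92.9% and 93.1% under these filters. By library, the 57 single loci of the stricter set numbered 56 for the female body, 54 for the male body and 52 for each gonad. The gap between bodies and gonads was thus much smaller than over all single loci.

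**Figure D3:**
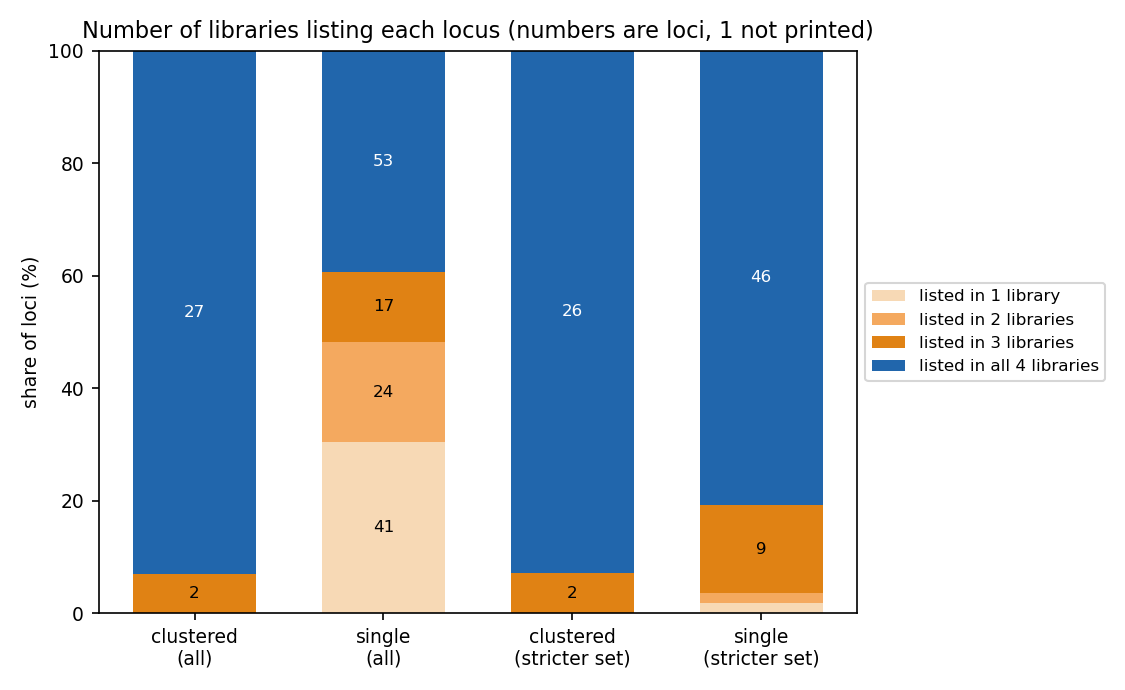
Share of loci, in percent on the y axis, by the number of libraries that list them, for clustered and single loci and for the stricter set without New entries, short mature sequences and short spans. All 4 libraries listed 27 of 29 clustered and 53 of 135 single loci, and 26 of 28 and 46 of 57 in the stricter set.

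Within a cluster, the loci shared their libraries in 7 of 9 clusters. In those 7 every locus was listed in all 4 libraries. The other 2 clusters each had 1 locus that a single library did not list. In the miR-2 cluster, the middle locus at JFBF01000002.1:2204580-2204646 was not listed in females. Its 25 nt miR-2a-3p was listed in males, ovaries and testes, and its miR-2a-1-5p of 23 nt in ovaries and testes. In the miR-6 cluster, miR-309-3p was listed in females, ovaries and testes and not in males, while all 5 of its miR-4 and miR-6 neighbours were listed in all 4 libraries. In Drosophila the miR-309 group clears maternal mRNAs in the embryo.

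In clusters, entries varied more than loci. Of the 51 clustered entries, 41 (80.4%) were listed in all 4 libraries, against 93.1% of clustered loci. A locus counted as listed if any of its entries was, so part of this drop is built in. At single loci there was no such drop, with 76 of 183 entries (41.5%) and 39.3% of loci. However, 98 of the 135 single loci held only 1 entry, against 12 of the 29 clustered loci. A locus with 1 entry cannot show a drop, so the lack of one at single loci does not set the clusters apart. Over all 234 entries the count was 117. This share was not counted for entries of the stricter set. The 10 clustered entries that were not listed everywhere came from 7 clusters, and the clusters of miR-11 and miR-998 and of miR-275 and miR-305 had none. For 3 of the 10, both gonad libraries listed the entry and neither body library did. No entry at a single locus had this pattern. The converse, an entry in both bodies and neither gonad, was found for 19 single entries and for no clustered entry. Over all 234 entries the shares were 1.28% for the gonads only and 8.12% for the bodies only. At loci of the stricter set, 3 of 50 clustered and 0 of 104 single entries were listed in the gonads only, and 0 and 5 in the bodies only. The 3 entries of the gonads are shown with their seeds in capitals.
miR-2a-1-5p: tCTCACAAagtggttgtgaaatg
miR-79, 24 nt: aTAAAGCTagattaccaaagcata
miR-9c-3p: tAAAGCTTttataccaaagct
The last 2 came from the miR-9c group, and in both cases the same locus was listed in all 4 libraries through another entry. At the miR-79 locus, whose partner miR-9b belongs to the miR-9 family of sense organ development in Drosophila, the form listed in all libraries had 22 nt and began 1 base after the form listed in the gonads.
miR-79, 22 nt: tAAAGCTAgattaccaaagcat
The shift of 1 base gives the shorter form another seed, AAAGCTA in place of TAAAGCT.

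The other entries that were not listed everywhere followed no common pattern. The 25 nt sequence listed as miR-2a-3p and, at the neighbouring locus, as miR-2b-3p was not listed in females at either place. The 3p arm of miR-100 was missing from ovaries only. The entry mir-12-p3 was missing from males only, mir-2c-p5 was listed in males only and mir-318-p5 in ovaries only, and all 3 were marked New.

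**Figure D4:**
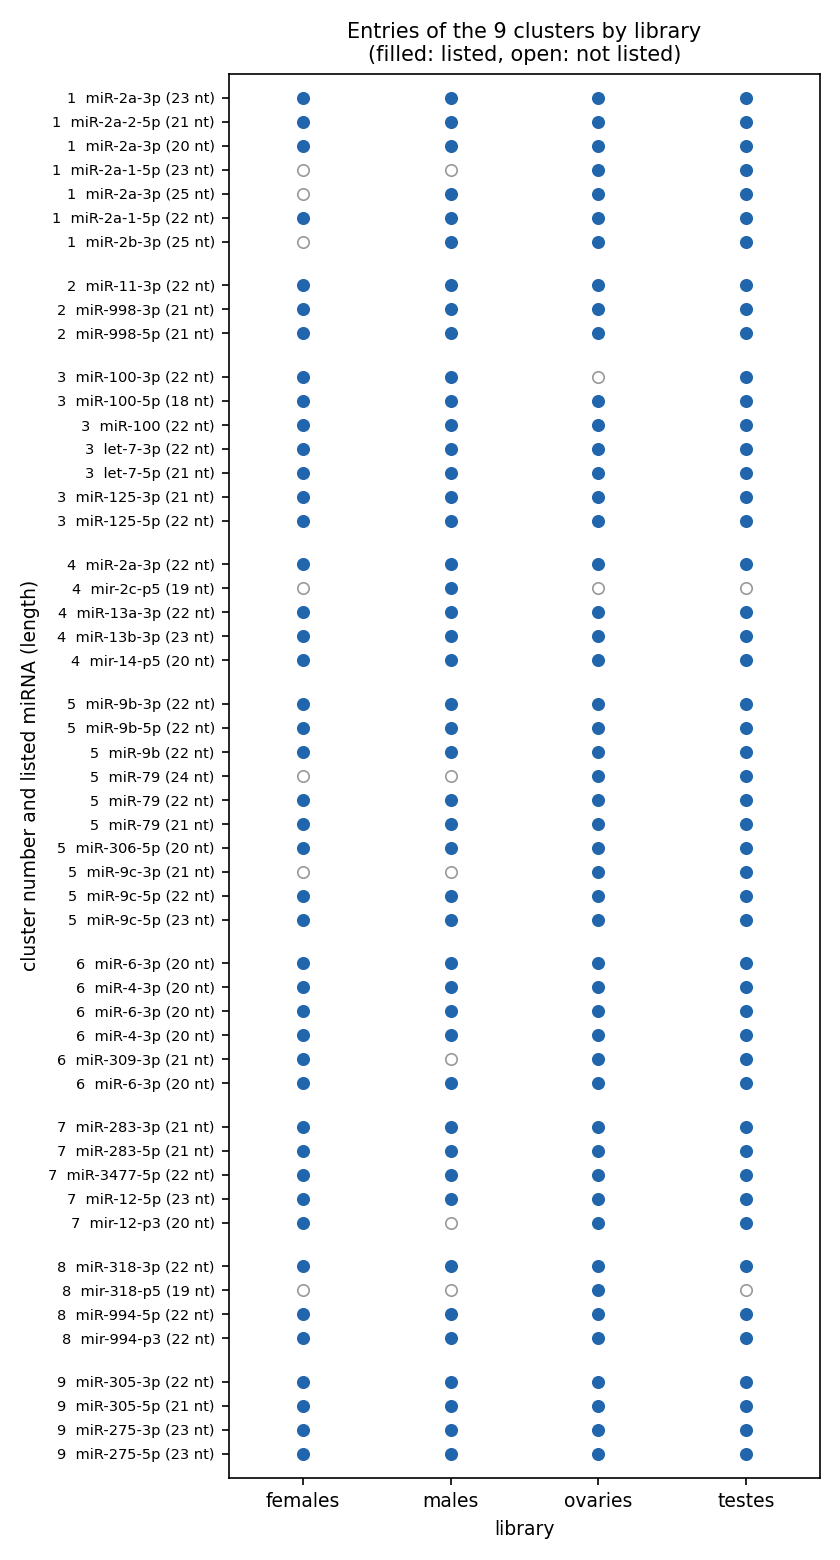
Entries of the 9 clusters by library. Each row is 1 of 51 listed mature sequences with its cluster number and length in nt, each column a library, filled points stand for listed and open points for not listed. Of the 51 rows, 41 are filled in all 4 columns, and 3 rows in clusters 1 and 5 are filled in ovaries and testes only.

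Both arms were listed at 17 of 29 clustered loci (58.6%, 38.9% to 76.5%), against 36 of 135 single loci (26.7%, 19.4% to 35.0%) and 32.3% of all loci. Both arms here means at least 2 sequences at a locus that share no run of 12 bases. In the stricter set the shares were 17 of 28 (60.7%) and 36 of 57 (63.2%), so the difference was not seen there. All loci of the let-7 complex, of miR-994 and miR-318, of miR-275 and miR-305 and of the miR-2 cluster had both arms. None of the 6 loci in the miR-6 cluster did, where only 3p sequences were listed.

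In a given library, the 17 clustered loci had both arms in 12 cases (female bodies), 13 cases (male bodies) and 15 cases in each gonad. The 36 single loci had both arms in 27 and 30 cases in these bodies, in 18 in the ovaries and in 22 in the testes. Both arms were therefore listed at somewhat more of the clustered loci in the gonads than in the bodies, and at fewer of the single loci. These are counts from 1 library each, and the difference was not tested.

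Seeds recurred across clusters. A seed shared with another locus through a different sequence was found at 22 of 29 clustered loci (75.9%) and at 37 of 135 single loci (27.4%). The locus sharing the seed lay in another cluster for 18 of the 29 and in the same cluster for 10. With identical sequences counted as well, the gap was narrower, at 22 of 29 clustered and 55 of 135 single loci (40.7%). Seed sharing was not counted in the stricter set. The seed ATCACAG of the miR-2 family was the most frequent. It was listed at 14 loci, 10 of them in 5 clusters and 4 of them alone. This 1 seed thus accounts for 10 of the 22 clustered loci with a shared seed. The sequences of the clustered loci are shown to compare what follows the common seed, which is in capitals. Those listed only at single loci, miR-2b-3p of 22 nt, miR-308-3p and mir-6-3-p5, are not shown.
miR-2a-3p, 20 nt: tATCACAGccagctttgatg
miR-2a-3p and miR-2b-3p, 25 nt: tATCACAGccagctttgaggagctt
miR-13a-3p: tATCACAGccattttgatgagt
miR-13b-3p: tATCACAGccattttgacgagtt
miR-11-3p: cATCACAGtctgagttcttgct
miR-6-3p, most downstream copy: cATCACAGtggctgttcttt
miR-6-3p, both other copies: tATCACAGtggctgttcctt
mir-994-p3: tATCACAGttgctgtttctttt
Within a cluster these relatives differed by few bases after the seed. Between miR-13a-3p and miR-13b-3p the only difference in 22 bases was T18C. Between the 20 nt and the 25 nt miR-2a-3p it was T19G over 20 bases, and the most downstream miR-6-3p differed from the other copies by C1T and T18C. In these tokens the first sequence named gives the first base, and positions count from 1 at the 5′ end. The miR-2 loci of 2 clusters also listed a form that began 2 bases further into the mature sequence, with the seed CACAGCC.
miR-2a-3p, 23 nt: tCACAGCCagctttgatgagctt
miR-2a-3p, 22 nt: tCACAGCCagctttgatgagca
At the first of these 2 loci the 20 nt form with the seed ATCACAG was listed as well, in the same 4 libraries.

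Further seeds joined miRNAs of different name and different cluster. The seed CACTGGG was found in miR-309-3p of the miR-6 cluster and in miR-318-3p, the seed CAGGTAC in miR-275-3p and miR-306-5p, and TAAAGCT in miR-4-3p and the 24 nt miR-79. Each pair is shown with its seed in capitals.
miR-309-3p: tCACTGGGtaaagtttgtcct
miR-318-3p: tCACTGGGctttgtttatctca
miR-275-3p: tCAGGTACctgaagtagcgcgcg
miR-306-5p: cCAGGTACttagtgactctc
miR-4-3p: aTAAAGCTagacaaccattg
In the miR-9c group, miR-9b-5p and miR-9c-5p shared the seed CTTTGGT and differed at 12 of 22 bases when compared base by base without a gap. With base 9 of miR-9b-5p skipped, they differed at 2 of 21 bases. The seed of miR-998-3p, AGCACCA, was shared with 3 single loci, named miR-285-3p and miR-995-3p. At 4 of 9 clusters, at least 2 loci carried a common seed.

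Some clustered sequences could not be assigned to 1 locus. The same sequence was listed at 2 loci for miR-4-3p, for miR-6-3p and for the 25 nt miR-2 form, each time within 1 cluster. The sequence of miR-13b-3p was also listed at a single locus on JFBF01000073.1. A read of such a sequence gives no information on which copy made it, and the listing of these loci in a library is not independent. A sequence found at no other locus was listed at 24 of 29 clustered and 113 of 135 single loci. In the miR-6 cluster the 6 loci rested on 4 distinct sequences.

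The clusters were set beside 15 groups of miRNAs known to lie close together, or to be looked for together, in Drosophila. The group of miR-281 held 1 name and so could not have 2 members in a cluster. In the group of miR-iab-4, miR-iab-8 and miR-10, the first 2 lay on opposite strands, which the rule does not join. In 9 groups at least 2 members lay in 1 contig cluster, and in 7 of these every member did. The let-7 complex, miR-2a and miR-2b, miR-2c with miR-13a and miR-13b, the miR-9c group, miR-275 and miR-305, miR-318 and miR-994, and miR-11 and miR-998 were complete. Of these, miR-2c rested on mir-2c-p5 alone, an entry of 19 nt marked New and listed in males only. The miR-309 group lacked miR-3 and miR-286, which no list named. Its miR-5 was listed mainly under a Drosophila arm name, so its place beside the cluster is not known from the lists, and on a contig only as a sequence of 19 nt in ovaries. In the group of miR-12 and miR-283 no list named miR-304, and here miR-3477 lay between them. Members were matched by name, and the sequence of miR-3477 was not compared with miR-304 of Drosophila. Whether it is the same miRNA under another name was therefore not tested. Of the groups not joined, miR-279 and miR-996 were listed on different contigs. For the groups of miR-310 and of miR-959, some members were listed only under Drosophila arm names, so their neighbourhood in this fly is not known from the lists.

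Predicted miRNAs, sequences without a match in miRBase that the authors found by their hairpins in the genome, added little to the clusters. Of 220 predicted entries, 11 lay within 10000 bases of a known locus and 10 of these were on its strand. The nearest known locus was a clustered one for 2 of the 11. The first, PC-5p-57217_26, overlapped the miR-2a and miR-2c locus by 79 bases, and its sequence was that of mir-2c-p5 with 1 more base at the 3′ end. The second, PC-3p-44798_37, lay on the opposite strand, 970 bases from miR-9b. No predicted miRNA therefore extended a cluster on its strand. Beside a single locus, PC-3p-275210_4 lay on the strand of mir-311-p3 on JFBF01000564.1, without overlap and with starts 665 bases apart. That distance is within the joining distance, but predicted entries were not joined, so this pair is not among the clusters.

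The sequences were also compared in length and base composition. Of 48 distinct clustered sequences 29 (60.4%) began with U, given as T in the lists, against 89 of 170 (52.4%) at single loci. The median length was 22 nt for clustered and 21 nt for single sequences, and 3 of 48 against 53 of 170 were shorter than 20 nt. The median GC content was 40.9% in both, and in the stricter set it was 40.9% for clustered and 45.5% for single sequences.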

How the data were processed

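Small RNA from 4 samples, 1 library per group, had been sequenced after size selection. The study's methods state that the authors trimmed adaptors, discarded poor reads and those from mRNA, Rfam RNAs or repeats, and aligned the rest to miRBase and earlier miRNAs of this fly, allowing a mismatch. The labels name ACGT101-miR 4.2 for this step. The lists deposited by the authors hold names, sequences, positions and a miRBase status, with no counts and no normalized amounts, so the depth behind an entry is unknown. Positions are those of the contigs in the lists, and the genome build is not given in the sources used here. Contig lengths and nearby genes were not used.

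Lists were read with Python 3.11.15 and pandas 2.3.3, and 2 repeated lines per list were dropped. Loci and clusters were formed as described in the report. Intervals were computed with scipy 1.17.1. The functions were tested on simulated data and recovered 6 of 6 made-up cases. Every clustered locus was named. Single loci were named for a library pattern only after their values had been seen. The members and the lists of Drosophila groups were chosen with earlier results of these data known. Alternatives were other joining distances, both strands, other filters on entries, listing by name, and leaving out the ovaries library.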

Additional observations from a re-analysis of the deposited data

How the results depend on the processing

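Under all 9 alternatives there were 8 to 10 clusters, of which 6 to 8 had 1 library pattern. The share of clustered loci listed in all libraries stayed between 90.3% and 96.6%. The count of clustered loci, 29, fell to 21 with a distance of 1000 bases and was 24 to 31 otherwise. The share of single loci listed in all libraries, 39.3%, moved. It was 61.2% without New entries, 60.3% without loci lacking a mature sequence of 20 nt, 57.0% when a locus counted as listed under any of its names at any position, and 53.8% without the ovaries library. In the stricter set, which was chosen after the data had been seen, it was 80.7%. The rise under the filters follows from the loci they leave out, and that without the ovaries library from needing 3 lists in place of 4 and from the loss of 16 single loci that ovaries alone listed. With a distance of 1000 bases, with 50000 bases, with both strands joined, or with loci lacking a sequence of their own left out (also chosen after the data had been seen), it stayed between 39.1% and 43.4%. No paired analysis was possible because each group had 1 library and the lists hold no amounts. A locus missing from a list may have had too few reads, and the lists cannot show this.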
